A study of Mus musculus with 17 samples.

Results

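Megf11, Rab11a, Tle3, Fstl4, Sdk2, Camta1 and Matn1 are 7 mouse genes, of 21938 protein-coding genes in the annotation, that were selected on the number of epithelium-only H3.3 regions at or around them in the chromatin of the newborn lens. Islands, stretches where ChIP reads exceeded the background, had been called in each of 4 libraries, and islands with at least 1 bp in common were merged into regions. A region was epithelium-only when only epithelium libraries had an island in it, fiber-only when only fiber libraries had one, and shared otherwise. Of 38396 regions, 3721 were epithelium-only (9.69%). The bodies of the 7 genes with 50 kb on each side held 139 regions, of which 50 were epithelium-only (36.0%), 46 fiber-only and 43 shared. Because the genes were picked on these island calls, the class counts are a description of the choice and were not tested.

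The libraries were made by ChIP-seq with an antibody to H3.3 from lenses of newborn CD-1 mice, named P1 in the sample titles and P0.5 in the protocol, which were microdissected into epithelium and fibers. There were 2 biological replicates per compartment, each from 150 pooled lenses per the labels, whereas the study's methods section gives another number of lenses. No genotype or treatment separates the groups, so that compartment is the only difference that the labels name. The authors mapped the reads to mm10 and called islands with SICER2, and each listed island carries the count of reads in it. The 4 lists held between 10389 and 35940 islands with between 1331369 and 5359085 reads, fewer in epithelium than in fibers, and the sequencing depth of the libraries is unknown, so that a stretch without an island is one in which none was called.

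H3.3 is a variant of histone H3 that is placed into chromatin outside of DNA replication. It is known to collect over the bodies of transcribed genes and at promoters and enhancers, where nucleosomes are replaced quickly. In the lens, the epithelium is the anterior layer of cells that still divide, and fiber cells arise from it, leave the cell cycle, elongate and fill with crystallins. The 7 genes encode proteins of different kinds. Megf11 is a transmembrane protein with many EGF-like domains, Sdk2 (sidekick 2) is a cell adhesion molecule of the immunoglobulin family, Fstl4 is a follistatin-like secreted protein and Matn1 (matrilin 1) belongs to the extracellular matrix of cartilage. Rab11a is a small GTPase of recycling endosomes, Tle3 is a co-repressor of the Groucho family, and Camta1 is a transcription activator that binds calmodulin.

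Both epithelium libraries had an island in 4 of the 50 epithelium-only regions (8%, against 7.69% of all epithelium-only regions), 3 in Megf11 and 1 in Camta1. These are the calls that a replicate repeated, and the middle 200 bases of the stretch in which both libraries had an island are printed for that reason, from the plus strand of GRCm38, with CG dinucleotides in capitals. None of the printed stretches touches an annotated exon.
Megf11 chr9:64511201-64511400: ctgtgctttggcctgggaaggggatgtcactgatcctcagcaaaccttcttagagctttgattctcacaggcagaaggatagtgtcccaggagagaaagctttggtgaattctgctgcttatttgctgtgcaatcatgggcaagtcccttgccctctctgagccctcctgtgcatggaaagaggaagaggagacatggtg
Megf11 chr9:64524001-64524200: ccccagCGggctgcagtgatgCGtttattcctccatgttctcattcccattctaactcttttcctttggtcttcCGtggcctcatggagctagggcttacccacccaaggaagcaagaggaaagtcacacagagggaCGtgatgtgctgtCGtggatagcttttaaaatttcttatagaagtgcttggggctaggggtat
Megf11 chr9:64614101-64614300: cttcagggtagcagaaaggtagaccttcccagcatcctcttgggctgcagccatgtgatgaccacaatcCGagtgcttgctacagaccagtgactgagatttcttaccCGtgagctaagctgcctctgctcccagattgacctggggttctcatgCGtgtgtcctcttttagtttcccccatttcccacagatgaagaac
Camta1 chr4:151667001-151667200: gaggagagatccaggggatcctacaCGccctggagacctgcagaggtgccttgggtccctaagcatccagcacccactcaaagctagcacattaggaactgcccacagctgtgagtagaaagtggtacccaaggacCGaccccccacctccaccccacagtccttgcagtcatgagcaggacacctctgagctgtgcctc
The stretches with an island in both libraries were 2600, 3400 and 3600 bp long in Megf11 and 2200 bp long in Camta1. The printed bases held 0, 5 and 3 CG in Megf11 and 2 in Camta1. None of the stretches of 75 nt, the length of a read, within these 4 regions occurs more than once in the assembled chromosomes.

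The label of genes rich in epithelium-only regions held for 3 of the 7 genes within 50 kb. Megf11 had 20 epithelium-only regions, Camta1 had 14 and Fstl4 had 10, whereas Matn1 had 3, Sdk2 had 2, and Rab11a and Tle3 had 1 each. At least 10 such regions were found at 9 protein-coding genes in all (0.041%), and at least 1 at 25.2% of them. By number, Megf11 ranked 2, Camta1 3 and Fstl4 7. All 3 are long genes, and per 100 kb of window Megf11 ranked 8, with 4.72 regions, Fstl4 682, with 1.91, and Camta1 1578, with 1.34. The region counted for Rab11a is one of those counted for Megf11, its neighbour on chromosome 9, so that the windows of these genes are not independent. The counts of Megf11 and Camta1 lean on epithelium replicate 2, and that of Fstl4 leans on replicate 1. Without replicate 2, Megf11 had 7 regions, Fstl4 6 and Camta1 5, so that none of them reached 10. Without replicate 1, Megf11 had 16, Camta1 10 and Fstl4 4. Both epithelium libraries had called an island in 3 of the regions of Megf11, in 1 of Camta1 and in 0 of Fstl4. The plot of regions by class shows the 3 genes apart from the other 4.

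**Figure D1:**
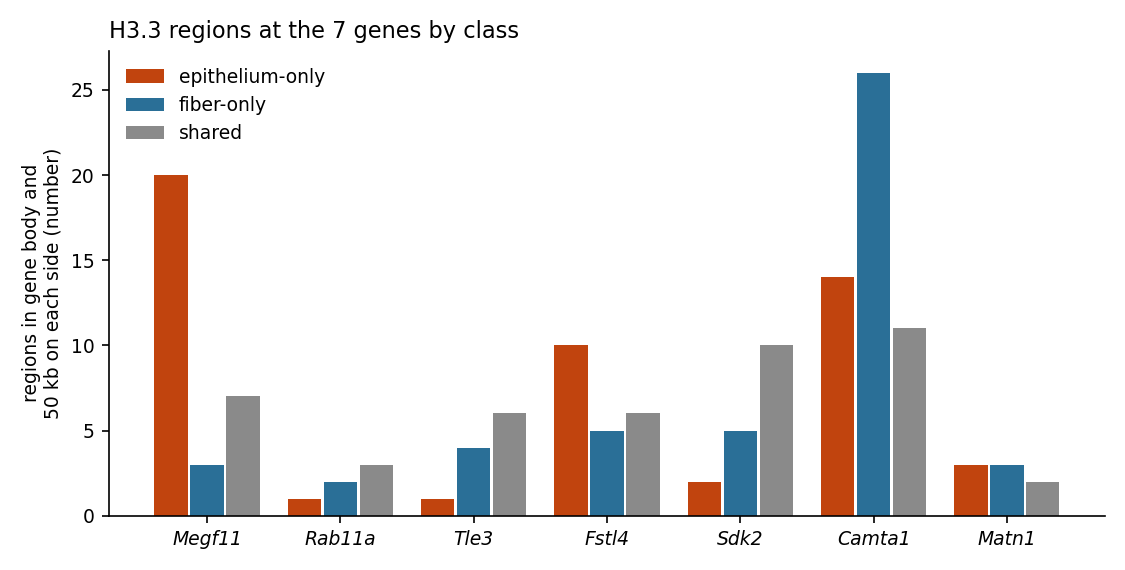
Number of epithelium-only (orange), fiber-only (blue) and shared (grey) H3.3 regions in the gene body and 50 kb on each side of each gene. Megf11 had 20 epithelium-only against 3 fiber-only regions, while Camta1 had more fiber-only (26) than epithelium-only (14) regions and Sdk2 and Tle3 had mostly shared and fiber-only ones.

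Megf11 (ENSMUSG00000036466.17) is a gene of 324 kb on the plus strand of chromosome 9 (64385626 to 64709205 in GRCm38) and has 25 exons in its longest coding transcript. It held 20 epithelium-only, 3 fiber-only and 7 shared regions, and all 20 epithelium-only regions lay in the gene body. Epithelium replicate 1 had an island in 7 of them, with 811 reads, and epithelium replicate 2 in 16, with 1321 reads. Most of the calls in Megf11 were therefore made in a single epithelium library, 13 in replicate 2 alone and 4 in replicate 1 alone. The map of islands along the gene shows that the calls of the replicates interleave.

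The first intron of Megf11, 116 kb long, contained 8 epithelium-only regions without an exon, and the fifth intron, 93.5 kb long, contained 6. In replicate 2, islands of the first intron began 21.4, 39.6 and 60.6 kb downstream of the gene start and held 82, 83 and 87 reads. The largest epithelium-only region of the gene, 7400 bp, began 98.6 kb downstream and was called in replicate 1 with 189 reads. The 3 regions called in both replicates began at 123, 136 and 226 kb. They held 105, 107 and 109 reads in replicate 1 and 69, 83 and 88 reads in replicate 2. In the fifth intron, islands of replicate 2 from 209 kb (2400 bp, 72 reads) and of replicate 1 from 211 kb (6000 bp, 141 reads) touched end to end and, having no base in common, were counted as separate regions. Further regions of replicate 2 over coding exons began at 115 kb (71 reads) and 265 kb (106 reads). The last region in the gene began at 297 kb and was called in replicate 1 with 72 reads.

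Of the 7 shared regions of Megf11, 1 began 0.375 kb downstream of the gene start and was called in replicate 1 of both compartments, and none of the 4 libraries had an island over the start itself. The longest, 17600 bp, began 302 kb downstream, reached over introns 15 to 23 and their exons and had an island in all 4 libraries. Islands covered 14.6% of the body of Megf11 in epithelium replicate 1 and 19.7% in replicate 2, compared with 10.3% in fiber replicate 1 and 8.71% in replicate 2. The mean was 17.2% ± 3.54 in epithelium and 9.52% ± 1.14 in fibers (SD, n = 2), and the compartments did not overlap. Megf11 was the only one of the 7 genes that epithelium covered more in every library, as did 1.27% of the 13391 protein-coding genes with an island in the body. The coverage comes from the same island calls by which Megf11 was chosen, so that it is a description and no test.

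**Figure D2:**
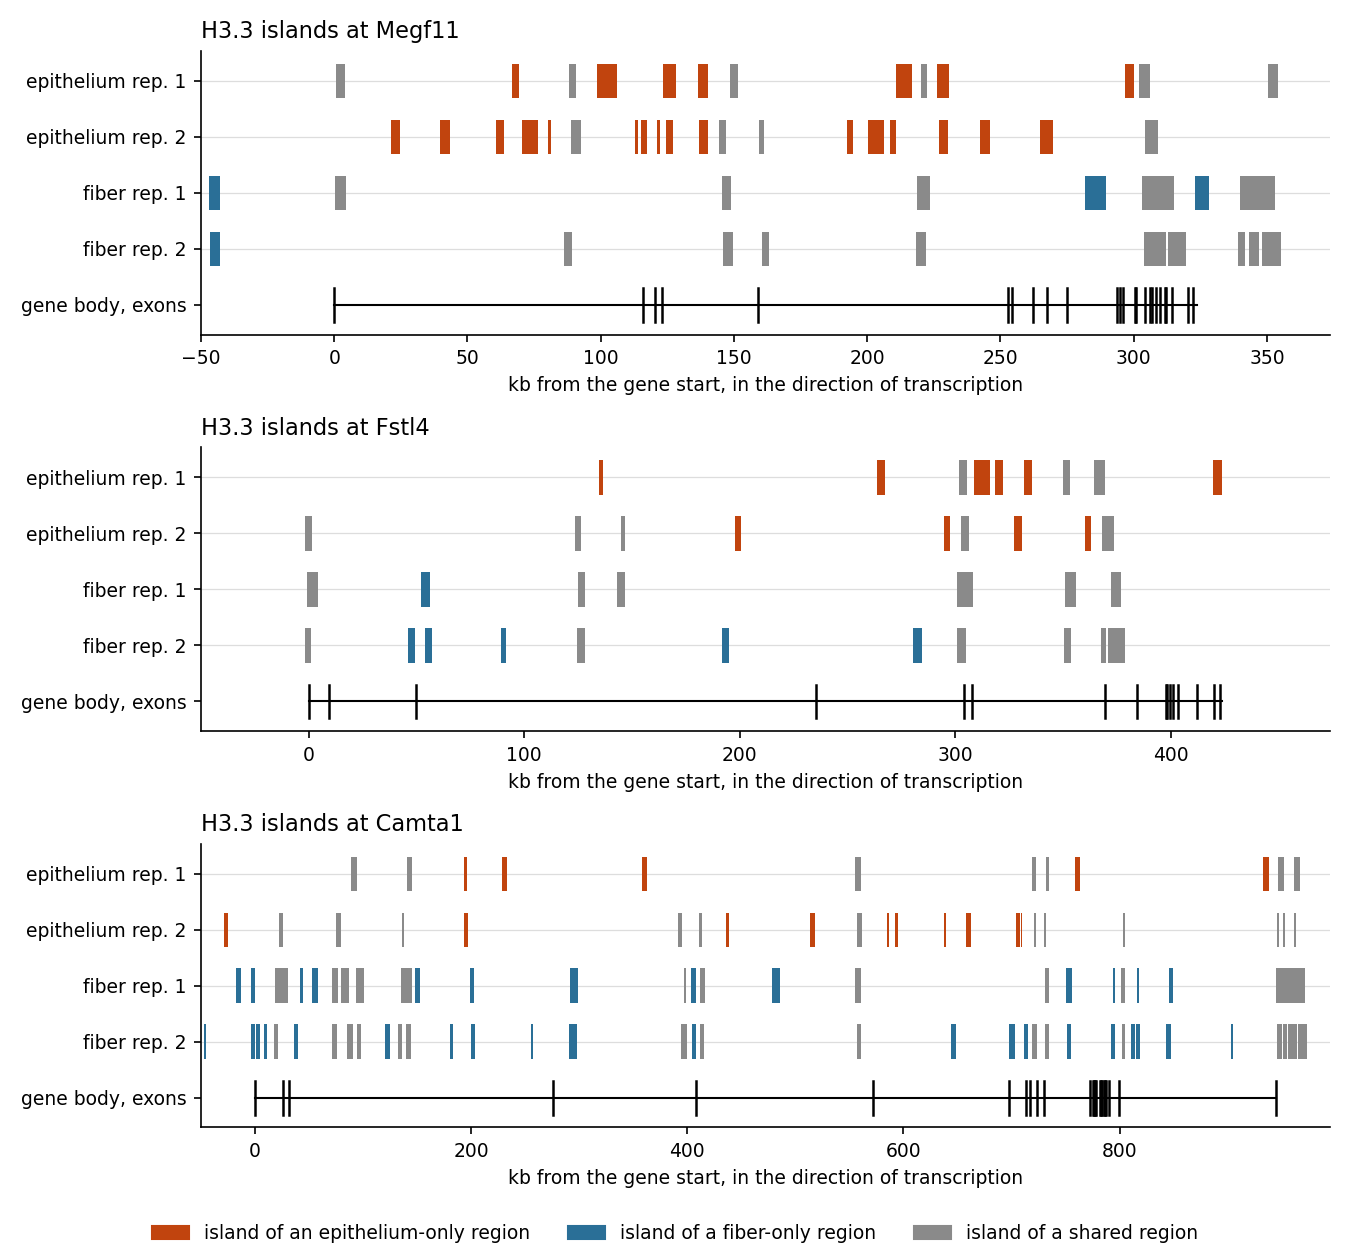
Islands in each library (rows) at Megf11, Fstl4 and Camta1 against the distance in kb from the gene start, coloured by the class of their region, with the gene body as a line and exons as ticks. Epithelium-only islands (orange) of the 2 epithelium libraries mostly lie at different places, with a long run of replicate 2 alone in Camta1. They coincide at 3 places in Megf11, at 1 in Camta1 and nowhere in Fstl4.

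Camta1 (ENSMUSG00000014592.20) lies on chromosome 4 from 150917322 to 151861876 on the minus strand and, with 945 kb, is the longest of the 7 genes. It held 14 epithelium-only, 26 fiber-only and 11 shared regions. Epithelium replicate 1 had an island in 5 of the 14, with 572 reads, and replicate 2 in 10, with 765 reads. The region called in both began 193 kb downstream of the gene start in the third intron and held 82 and 83 reads. It lay 2.20 kb from the nearest fiber island. In the gene body, 13 epithelium-only regions were found, all in introns, of which 4 lay in intron 6 and 9 lay past 50% of the length of the gene. The remaining one lay 24.5 kb upstream and was called in replicate 2 with 104 reads. Islands covered 4.74% and 5.70% of the body in epithelium and 11.8% and 12.4% in fibers, so that both fiber libraries covered more of Camta1 than either epithelium library. The epithelium-only region nearest its 3′ end also lies in the body of Tnfrsf9, a receptor of the TNF family whose gene overlaps the end of Camta1, and it was called in replicate 1 with 160 reads.

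Fstl4 (ENSMUSG00000036264.9) lies on chromosome 11 from 52764634 to 53188538 on the plus strand and spans 424 kb. It held 10 epithelium-only, 5 fiber-only and 6 shared regions, all in the gene body. None of the 10 was called in both epithelium libraries, as replicate 1 had 6 of them, with 649 reads, and replicate 2 the other 4, with 316 reads. The distal part of the gene held 8 of the 10, past 50% of its length, and intron 6 held 5. In intron 6, regions of replicate 1 began 309, 319 and 332 kb downstream of the gene start with 180, 92 and 96 reads. Regions of replicate 2 began between and after them, at 328 and 360.4 kb, with 96 and 69 reads. The last epithelium-only region began at 420 kb, over coding exons near the 3′ end, and held 107 reads in replicate 1. Islands covered 8.78% and 6.69% of the body in epithelium and 7.73% and 9.24% in fibers, and the compartments overlapped. The mean was 7.73% ± 1.47 in epithelium and 8.48% ± 1.07 in fibers (SD, n = 2), a difference smaller than the spread between replicates.

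Sdk2, Tle3 and Rab11a had more of their bodies covered by islands in fibers. Sdk2 (ENSMUSG00000041592.16, chromosome 11, 113776374 to 114067046, minus strand) was covered by 25.5% and 25.9% in epithelium and by 82.5% and 79.3% in fibers. Tle3 (ENSMUSG00000032280.16, chromosome 9, 61372366 to 61418497, plus strand) was covered by 59.9% and 36.9% in epithelium and by 89.0% and 89.4% in fibers. Rab11a (ENSMUSG00000004771.12, chromosome 9, 64715299 to 64737758, minus strand) was covered by 6.94% and 0% in epithelium and by 54.1% and 47.9% in fibers. With Camta1, both fiber libraries covered more than both epithelium libraries at 4 of the 7 genes, against 62.8% of protein-coding genes with an island in the body, a background that also holds the larger number of fiber islands. In Sdk2, islands reached 36800 bp in length in fiber replicate 1 and 7200 bp in epithelium replicate 1.

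**Figure D3:**
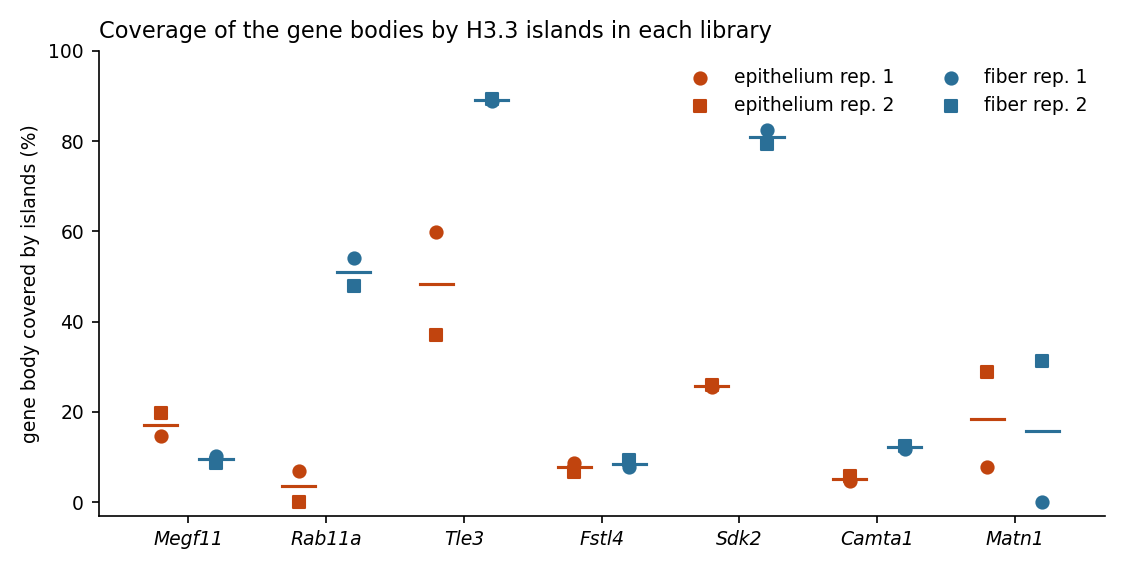
Percent of each gene body covered by H3.3 islands, 1 point per library, orange for epithelium and blue for fibers, with lines at the mean of 2 libraries. Both epithelium libraries lie above both fiber libraries at Megf11 alone, and both fiber libraries lie above both epithelium libraries at Rab11a, Tle3, Sdk2 and Camta1.

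Few epithelium-only regions lay close to these genes. Sdk2 had 2, both called in replicate 2. One of them touched coding exons 209.8 kb downstream of the start with 64 reads, and the other lay 44.4 kb upstream with 73 reads. Tle3 had 1, which lay 33.3 kb downstream of its end and held 59 reads in replicate 2. The body of Rab11a had none, and the region counted for it, called in replicate 1 with 72 reads, lay 29.7 kb beyond its 3′ end, inside Megf11. A shared region of 44400 bp with islands in all 4 libraries covered most of Tle3 including its start, and a shared region of 16200 bp covered the start of Rab11a with islands in epithelium replicate 1 and both fiber libraries.

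Matn1 (ENSMUSG00000040533.7) lies on chromosome 4 from 130944385 to 130955475 on the plus strand and is 11.1 kb long. Of its 3 epithelium-only regions, 1 lay in the body, 1 was 44.6 kb upstream and 1 was 32.7 kb downstream. The region in the body began 16 bp downstream of the gene start, was 3200 bp long over introns 1 and 2 with coding sequence, and held 79 reads in replicate 2. It was the only epithelium-only region of the 50 that began within 1 kb of the start of its gene. The region upstream held 92 reads in replicate 1, at 32.9 reads per kb. Islands covered 7.89% and 28.9% of the body of Matn1 in epithelium and 0% and 31.3% in fibers, so that each compartment spread over most of the range.

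Upstream sequence of 250 bases from RefSeq on GRCm38 was found for 6 of the 7 genes, and that of Matn1 is printed because an epithelium-only region began next to it, on the plus strand with CG in capitals.
Matn1 upstream chr4:130944135-130944384: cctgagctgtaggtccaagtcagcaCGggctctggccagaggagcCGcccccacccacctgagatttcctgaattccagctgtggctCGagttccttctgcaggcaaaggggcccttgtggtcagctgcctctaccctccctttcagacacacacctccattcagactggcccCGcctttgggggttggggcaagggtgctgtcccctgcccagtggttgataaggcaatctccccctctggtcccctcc
It held 4 CG, and at least as many were found in 62.2% of the 32851 upstream sequences of the table. No library had an island over it. The sequence upstream of Tle3 held 17 CG (at least as many in 23.5%) with an island of all 4 libraries over it, and that of Rab11a held 10 CG (37.8%) with islands of 3 libraries. Fstl4 had 26 CG (9.59%) with islands of 3 libraries. Sdk2 had 38 CG (1.88%) and Camta1 18 CG (21.7%), each with islands of the 2 fiber libraries alone.

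Away from the gene bodies, the other epithelium-only regions are assigned by the regulatory domains of GREAT, a tool that the study used for gene ontology, in which each gene start holds a basal stretch of 5 kb before and 1 kb after it, lengthened by up to 1 Mb until it meets its neighbours. This count was added after the values within 50 kb had been seen. The domains held 20 epithelium-only regions for Megf11 and for Rab11a, 19 for Tle3, 17 for Fstl4, 16 for Sdk2, 13 for Camta1 and 12 for Matn1. At least 12 such regions lay in the domains of 14 protein-coding genes (0.0638% of 21938), and since the 7 genes were chosen for many such regions, nothing is read from this. The domains of the 7 genes were between 390 and 1118 kb long, against a median of 89.4 kb over all protein-coding genes. For 4 of the genes nearly all of these regions lay outside the window of 50 kb, at 19 of 20 for Rab11a, 18 of 19 for Tle3, 14 of 16 for Sdk2 and 10 of 12 for Matn1. The domains of Megf11 and Rab11a overlap, and the 20 regions of Rab11a are those inside Megf11, between 53.8 and 329 kb downstream of the start of Rab11a.

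At Tle3, the 19 regions lay on both sides of the gene, 10 upstream and 9 downstream, at a median distance of 316 kb from the start. Both epithelium libraries had an island in 4 of them (21.1%), against 7.69% of all epithelium-only regions, and all 4 lay upstream, with midpoints 516, 421, 213 and 79.3 kb from the start. At Sdk2, 15 of the 16 regions lay upstream, at a median of 215 kb over all 16, and none was called in both libraries, with 13 in replicate 2 and 3 in replicate 1. At Matn1, all 12 lay downstream of the start, as far as 771 kb, and 1 was called in both libraries. Fstl4 had 7 upstream and 10 in its body, with 10 in replicate 1, 7 in replicate 2 and none in both.

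**Figure D4:**
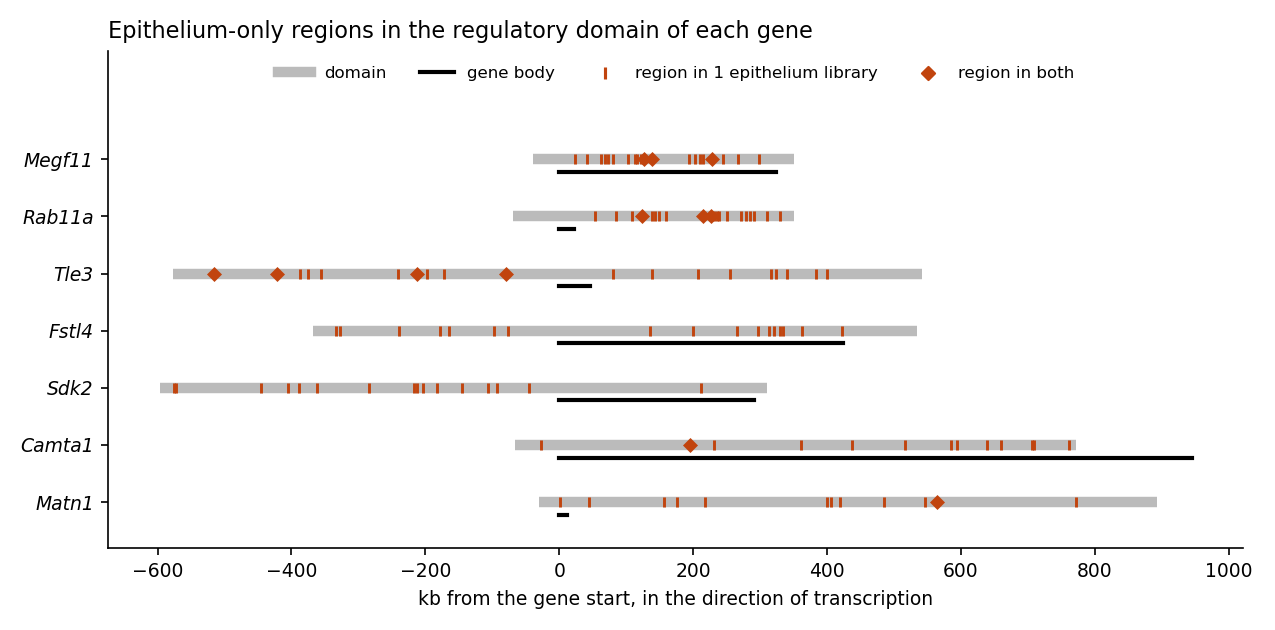
Epithelium-only regions (orange ticks, diamonds where both epithelium libraries had an island) by distance in kb from the gene start, with the regulatory domain in grey and the gene body in black. The regions of Megf11 lie within its body, those of Sdk2 mostly upstream, and those of Tle3 on both sides, with 4 diamonds upstream.

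Over the 7 genes, the 50 epithelium-only regions had a median length of 3400 bp (from 1200 to 7800 bp), against 3000 bp for all epithelium-only regions. In a gene body lay 45 of them, of which 39 were in an intron without touching an exon of their gene, 5 touched coding sequence and 1 another exon. Counted against the exons of any gene, 38 of the 50 (76.0%) lay in a protein-coding gene without touching an exon, compared with 21.6% of all 3721. The windows of the long genes are mostly intron, and the part of this in the share was not tested. Of the 46 regions called in 1 library, 24 (52.2%) had an island of the other epithelium library within 10 kb, at a median distance of 9.50 kb. Over all epithelium-only regions called in 1 library, 1084 of 3435 (31.6%) had one that near, and the median distance was 23 kb. The genes were chosen for many epithelium islands of either library, so that this nearness is a description of the choice.

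The class of a region depended on small distances in some cases. The epithelium-only regions closest to a fiber island lay 200 bp from one in Sdk2, 400 bp in Fstl4 and 1000 bp in Camta1, whereas the shared regions with the smallest overlap between the compartments had 800 bp in common in Megf11 and 1000 bp in Camta1. The median distance from the 50 regions to the nearest fiber island was 9.60 kb, against 6.80 kb for all epithelium-only regions.

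Read density within epithelium-only islands was close to that of such islands elsewhere. In replicate 1, 19 islands had a median of 25.5 reads per kb, and in replicate 2, 35 islands had a median of 25.9, against 26.8 and 26.4 over all islands of epithelium-only regions. The ratio was 0.968 ± 0.0229 (SD, n = 2). Within the same genes, islands of shared regions had medians of 28.2 reads per kb (47 islands) and 28.0 (54 islands). The densest epithelium-only island of replicate 2, at 37.5 reads per kb, was that of 1200 bp in the first intron of Megf11, and that of replicate 1, at 34.2, belonged to the region of Camta1 called in both libraries.

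**Figure D5:**
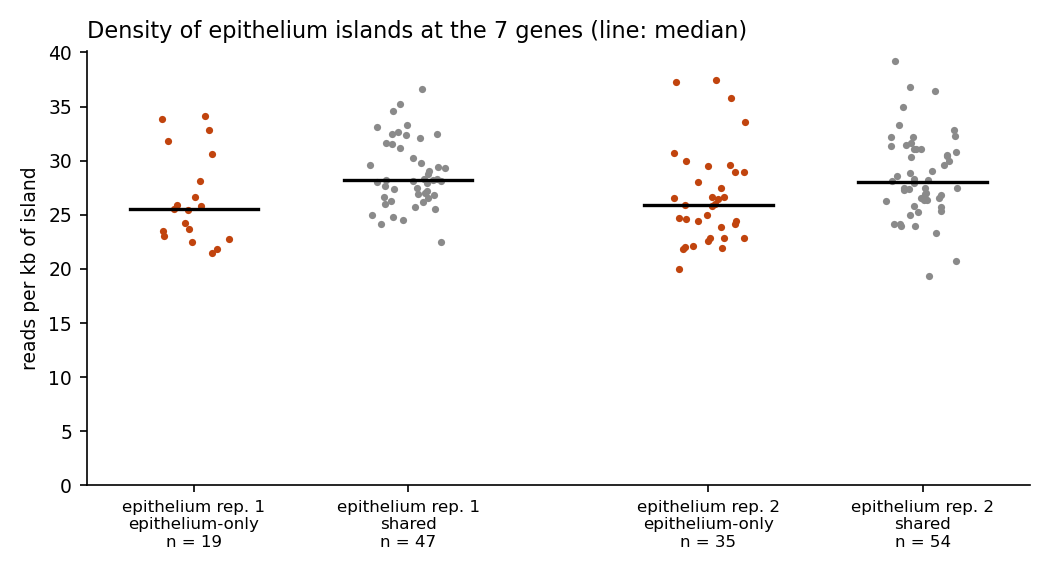
Reads per kb of each epithelium island at the 7 genes, in epithelium-only (orange) and shared (grey) regions of each replicate, with a line at the median. The points of the classes overlap, and the medians of epithelium-only islands, 25.5 and 25.9, lie below those of shared islands, 28.2 and 28.0.

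Density in shared regions was not the measure by which the genes were chosen, and it was compared between the compartments. The class of these regions comes from the same island calls as the choice, and reads outside of islands were not counted. In epithelium, islands of these regions held 28.5 reads per kb in replicate 1 and 27.8 in replicate 2. In fibers, they held 29.96 and 29.8, above both epithelium values when all reads were divided by all covered length. The difference, fiber minus epithelium, was 1.70 reads per kb between means of 28.2 ± 0.513 and 29.9 ± 0.141 (SD, n = 2), with p = 0.33 in a two-sided exact permutation test, which cannot give less with 2 libraries against 2. As a median over islands the difference was 0.420 (exact permutation p = 0.67), and fiber replicate 2, at 28.1, then lay below epithelium replicate 1, at 28.2. Over all islands of a library, the median was higher in epithelium, at 28.3 and 28.1 reads per kb, than in fibers, at 27.4 and 27.5. The direction differed between genes, but the counts that follow have no share over all genes beside them, so nothing is read from them. Shared regions that began 302 and 339 kb downstream of the start of Megf11 were counted for Rab11a as well. All islands of epithelium replicate 1 in shared regions at Rab11a lay in these, so that Megf11 and Rab11a are not independent. Both fiber libraries lay above both epithelium libraries at 3 of the 7 genes (Rab11a, Tle3 and Sdk2), and both epithelium libraries lay above both fiber libraries at Megf11, with 30.1 and 27.9 against 27.7 and 26.9, and at Matn1, with 27.6 and 25.9 against 25.8 and 24.1. The compartments overlapped at Fstl4 and Camta1. These counts carry the depth of each library, which is unknown. Islands of shared regions covered 196.6 and 202 kb in epithelium and 478 and 455 kb in fibers, in 47 and 54 islands of epithelium and 52 and 63 islands of fibers. Sdk2 alone contributed 242 and 236 kb of the covered length in fibers, against 88.4 and 88.6 kb in epithelium. With the regions at Sdk2 left out, which was chosen after these values had been seen, the difference was 0.833.

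Base composition was read from the reference sequence of the regions. The median G+C was 49.9% in epithelium-only, 49.5% in fiber-only and 50.1% in shared regions at the 7 genes, with 49.6% over all epithelium-only regions. The observed number of CpG was 0.190, 0.216 and 0.218 times the expected one in the same order (median), and 0.214 over all epithelium-only regions. Of the stretches of 75 nt in the 50 regions, 0.166% occur more than once in the assembled chromosomes, compared with 7.74% over all 3721. Fiber-only and shared regions at the 7 genes had 1.07% and 0.737%, so that a low value was not particular to the epithelium-only class. No repeated stretch was found in 40 of the 50 regions, against 2384 of all 3721. A read of that length can be placed at nearly all positions of the 50 regions. Sequence in lower case, which the assembly marks as repeats, made up 17.2% of the 50 regions and 20.8% of all.

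Relatives of the 7 genes were read by the same rule. Of 25 relatives (Megf, Rab11, Tle, follistatin-like, Sdk, Camta and matrilin genes), 11 (44.0%) had an epithelium-only region, 22 a fiber-only and 21 a shared one, against 25.2%, 69.9% and 50.7% of all protein-coding genes, and the relatives were longer, at a median of 40.8 kb against 17.4 kb. The most epithelium-only regions at any was 3, at Megf6. Megf6 was also the only relative with more epithelium-only (3) than fiber-only regions (2). Sdk1, which with 974 kb is longer than Camta1, had 2 epithelium-only, 35 fiber-only and 6 shared regions. Fstl5, of 636 kb, had no region of any class, and neither had Fst, which encodes follistatin. Camta2 had 1 epithelium-only, 1 fiber-only and 3 shared regions. Outside the windows of the 7 genes, the protein-coding genes with the most epithelium-only regions were Gm20388, a gene model of 4435 kb that spans many genes, with 58, Cux1 with 12, Tns1 and Cdh23 with 11 each and Zfp423 with 10. Tns1, which encodes the focal adhesion protein tensin, had 2 fiber-only and 4 shared regions and, like Megf11, more of its body covered in epithelium (11.7% and 17.3%) than in fibers (5.44% and 8.96%).

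Markers of the compartments were read as genes with an island in the body. Such an island was present at 13391 of 21938 protein-coding genes. The share per library is not given beside the counts of markers, so that nothing is read from them. Of 5 genes that mark lens epithelium, 3 and 4 had an island in the epithelium libraries and 4 and 5 in the fiber libraries. Of 6 fiber genes, 3 and 4 had one in epithelium and all 6 in both fiber libraries, so that islands at some fiber genes, such as Mip and Crybb1, were also called in epithelium. The bodies of Bfsp1 and Lim2 were covered by 0% in both epithelium libraries and by 100% in both fiber libraries. None of the 5 epithelium genes was covered more in epithelium. Pdgfra was covered by 15.2% and 14.4% in epithelium and by 64.5% and 74.5% in fibers. Cdh1 had 17.0% and 26.9% against 41.6% and 48.6%, and Pax6 76.9% and 81.7% against 94.4% and 85.2%. Foxe3 had 0% and 100% in epithelium and 100% in both fiber libraries. Npnt was covered in fiber replicate 2 alone, by 7.72%. Of 8 genes of vessels, immune cells, retina and cornea, Kdr, Ptprc, C1qa, Crx and Krt12 had none in any library. An island shows H3.3 and not expression, and the part of other cells in the calls at the 7 genes was not tested.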

How the data were processed

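The 4 H3.3 ChIP-seq libraries came from newborn lens epithelium (2) and lens fibers (2). The authors aligned 75-nt single-end reads to mm10 by BWA at default settings and called islands per library with SICER2 (window 200 bp, gap 600 bp, false discovery rate 0.01, per the names of the files). The deposited lists give the count of reads in each island, which is not normalized. Removal of duplicates, use of an input and depth are not given in the sources used here, and so no intervals were computed. The number of libraries limits the precision.

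The 7 genes, the relatives and the markers were chosen with earlier results of these data known. Islands were merged at 1 bp in common and listed over GENCODE M21 gene bodies with 50 kb on each side. Reads per kb are an island's reads over its length. The density of shared regions was tested by exact permutation of the libraries, two-sided, with 6 arrangements. Named were the 7 genes, protein-coding genes that overlap their epithelium-only regions, the 5 other protein-coding genes with the most such regions, and 25 relatives. The share of regions in a gene without touching an exon leaves out gene models of 2.5 Mb or more. Sequences were read from GRCm38.p6 and RefSeq. The alternatives left out each library, kept replicated, dense or long islands, equalised the number of islands, and changed the overlap, the merging distance and the window. Tools were numba 0.67.0, scipy 1.17.1, numpy 2.4.6, matplotlib 3.10.9 and Python 3.11.15. The steps were tested on simulated data with regions far apart, in which all 600 planted regions received their class. Islands of the 2 compartments that lie close together without overlap were not simulated. The pooled input and bisulfite sequencing were not analysed here.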

Additional observations from a re-analysis of the deposited data

How the results depend on the processing

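Epithelium replicate 2 decided most of the counts. Leaving out each library in turn gave between 19 (without epithelium replicate 2) and 56 epithelium-only regions at the 7 genes and a share between 17.3% and 43.1%, while the share over all regions moved from 4.31% to 17.2%. Without epithelium replicate 2, Megf11 had 7, Camta1 5 and Fstl4 6 regions, and without epithelium replicate 1 Fstl4 had 4. Only regions called in both replicates left 4 epithelium-only regions (10.3% of 39, and 1.88% of all regions), none at Fstl4. Dropping islands below the median density of their library left 22 (11 at Megf11), and merging within 5 kb also left 22 (27.8%), 7 at Megf11. With equal numbers of islands per library, taken by read count or by density, the share was 61.5% and 59.1%, against 34.5% and 33.9% of all regions. The ratio of the share to that of all regions thereby fell from 3.71 to 1.78 and 1.74, the smallest under any alternative. The ratio of density to other epithelium-only islands moved to 0.924 with regions called in both replicates, 1.05 without islands below the median density and 0.912 with total reads over total length, and lay between 0.950 and 0.981 without single libraries. The share of repeated stretches was 0.785% at 50 nt. The difference in shared regions lay between 1.72 and 2.29 reads per kb without single libraries and at 0.420 as a median over islands, and it turned to -14.7 per 1000000 reads after division by the reads in islands, a divisor that grows with the number of islands called, so that the sign holds no information on these genes. With the replicate number as a block, which marks no shared litter or day in the labels, it was 1.70 (exact sign flips over 2 pairs, p = 0.5, the smallest possible).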
